A study of Mus musculus with 12 samples.

Results

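The chemoattractant receptor genes Ccr1, Ccr2, Ccr7, Cxcr4, Fpr1, Fpr2, C3ar1 and C5ar1, with Gpr84, were followed through the conversion of a mouse B cell line towards macrophages. These 9 genes were chosen as a list of named symbols, and every probe set that the annotation of the array assigned to them was taken. Probe sets were found for 8 of the 9 genes, 15 in all among 45037, and the expression of Fpr1 was not analysed here. The 8 genes all passed the filter on dim signals, as did 11696 of the 18193 genes with a named probe set.

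RNA was measured on 12 one-colour arrays, 2 for each of 6 conditions. HAFTL, a line from fetal liver transformed by the Ha-ras oncogene, received beta estradiol and serves as the design's control line. C10, a line in which C/EBPa, a transcription factor of myeloid cells, can be induced, received ethanol as the vehicle, or beta estradiol for 3, 12, 24 or 48 h. Each line is a single cell line, and the HAFTL arrays carry no time of treatment and have no vehicle group of their own. The labels do not say whether duplicates were separate cultures, and the p-values therefore cover the spread between 2 arrays that may differ only technically.

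Chemoattractant receptors are seven-helix membrane proteins that couple mainly to inhibitory G proteins. Ligand binding releases the G protein's beta-gamma subunits, which drive phosphoinositide 3-kinase, phospholipase C and actin assembly at the front of a moving cell, and receptor kinases and arrestins then switch the receptor off. Ccr1 and Ccr2 bind inflammatory CC chemokines and bring monocytes and macrophages into tissue, Ccr7 guides lymphocytes and dendritic cells to lymph nodes, and Cxcr4 binds Cxcl12 and holds B cell precursors and other haematopoietic cells in the bone marrow. C3ar1 and C5ar1 bind the complement fragments C3a and C5a, and Fpr1 and Fpr2 bind formylated peptides of bacterial and mitochondrial origin. Gpr84 is a receptor for medium-chain fatty acids that is found on myeloid cells.

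The 250 bases before the annotated start of a gene were available for 8 of the 9 genes, Ccr7 being the one without an entry, in the RefSeq annotation of GRCm38.p6. Promoters are shown for some of the courses that the signals took: Gpr84 for the rise within hours, Ccr1, C3ar1 and Fpr2 for rises at 24 h or 48 h, and Cxcr4 for a fall. Each sequence runs 5′ to 3′ on the strand of its gene, and capitals mark matches to the motifs searched on both strands: the C/EBP palindrome TTGCGCAA, its looser form TTNNGNAA, the Ets core GAGGAA and the AP-1 site TGANTCA.
Gpr84: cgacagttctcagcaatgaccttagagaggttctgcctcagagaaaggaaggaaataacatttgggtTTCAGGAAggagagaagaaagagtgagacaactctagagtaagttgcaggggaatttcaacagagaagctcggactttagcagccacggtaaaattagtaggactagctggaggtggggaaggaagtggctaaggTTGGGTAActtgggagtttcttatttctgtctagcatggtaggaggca
Ccr1: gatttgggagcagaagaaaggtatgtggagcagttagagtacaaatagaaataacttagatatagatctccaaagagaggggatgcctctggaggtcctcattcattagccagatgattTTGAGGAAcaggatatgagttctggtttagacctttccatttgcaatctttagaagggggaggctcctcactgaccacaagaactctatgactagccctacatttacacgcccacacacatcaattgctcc
C3ar1: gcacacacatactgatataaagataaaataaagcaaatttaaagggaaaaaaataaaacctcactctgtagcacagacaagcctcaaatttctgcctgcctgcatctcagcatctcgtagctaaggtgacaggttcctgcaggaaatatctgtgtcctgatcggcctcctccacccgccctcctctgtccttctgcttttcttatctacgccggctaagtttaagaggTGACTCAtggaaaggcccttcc
Fpr2: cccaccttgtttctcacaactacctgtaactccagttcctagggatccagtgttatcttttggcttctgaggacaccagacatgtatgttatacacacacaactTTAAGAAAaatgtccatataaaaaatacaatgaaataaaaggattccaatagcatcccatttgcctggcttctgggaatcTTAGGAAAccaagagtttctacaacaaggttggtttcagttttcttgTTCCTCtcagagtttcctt
Cxcr4: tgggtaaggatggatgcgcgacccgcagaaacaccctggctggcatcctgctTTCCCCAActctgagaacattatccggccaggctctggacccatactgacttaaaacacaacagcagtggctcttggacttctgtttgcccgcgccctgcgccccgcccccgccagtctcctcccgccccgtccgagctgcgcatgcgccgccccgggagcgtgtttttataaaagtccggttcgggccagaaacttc
The windows lie at chr15:103310439-103310688 (minus strand) for Gpr84, chr9:123968693-123968942 (minus strand) for Ccr1, chr6:122856158-122856407 (minus strand) for C3ar1, chr17:17887574-17887823 (plus strand) for Fpr2 and chr1:128592300-128592549 (minus strand) for Cxcr4. The palindrome was in 0 of the 8 windows, and 0.164% of all 32851 windows of that length held it. The looser C/EBP form was in 7 of the 8 windows, all but C3ar1, against 36.8% of all windows. Gpr84 held it in the forms TTCAGGAA and TTGGGTAA, the second of them 48 to 41 bases before the start. The Ets core was in 2 of the 8 windows, Ccr1 and Fpr2, against 23.3% of all windows, and in Ccr1 it lies inside the looser C/EBP match TTGAGGAA. The AP-1 site was in 1 of the 8, as TGACTCA 22 to 16 bases before the start of C3ar1, against 6.75% of all windows. Cxcr4, whose signal fell, also held the looser C/EBP form, printed as TTCCCCAA because the match is on the opposite strand. These are matches of letters and not measured binding.

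Array-wide measures bear on all of these genes. The filter level was 6.22 on the log2 scale, a signal of 74.7, and signals under 16 were set to that floor. Duplicates correlated at 0.976 to 0.980 over the genes tested, and genes are no independent replicates. The Actb 5′ to 3′ signal ratio, a sign of RNA quality or labelling, was 0.582 to 0.638 with vehicle, 0.691 to 0.740 in HAFTL and 0.746 to 0.848 in C10 with estradiol, so it moved with the treatment, and its part in the changes was not tested. The Gapdh ratio was 1.15 to 1.194 with vehicle, 1.282 to 1.366 in HAFTL and 1.135 to 1.315 in C10 with estradiol. It thus overlapped between vehicle and treated C10. The probe set of Cebpa was at the floor in 10 of 12 arrays and never exceeded 34.6, so it does not check the induction. The summed signal of 10 macrophage markers rose from 1377 to 1393 with vehicle to 120097 to 120342 at 48 h. Of the 9 tested, 8 were called higher at 48 h and 1 was not called. Marco stayed at the floor in all 12 arrays, and the mean of Adgre1 moved only from 88.1 with vehicle to 149 at 48 h. Itgam, with means of 18.2 with vehicle and 660 at 48 h, passed the filter in 4 arrays. The summed signal of the 9 B lineage markers measured fell from 116494 to 118892 with vehicle to 18665 to 20275 at 48 h. Sums of the 9 granulocyte markers measured went from 266 to 373 with vehicle to 16782 to 18260 at 24 h and 9962 to 11348 at 48 h. They were led at 24 h by Camp, S100a8 and Prtn3, with means of 7981, 6386 and 2876. Ctsg never passed the filter level, and Elane and S100a9 each passed it in 1 array. Ngp, the 1 granulocyte marker called lower at 48 h, went from a mean of 54.4 with vehicle to 23.0. The part of such cells in the results was not tested. Sums of the 5 dendritic cell markers went from 205 to 243 with vehicle to 612 to 627 at 24 h and 562 to 576 at 48 h, with Itgax called higher at both times and Zbtb46 never over the filter level, and their part was not tested. Sums for T and NK cell, mast cell, erythroid and stroma markers lay between 52 and 608 in every array. In bulk RNA, fewer cells of a type and less RNA per cell cannot be told apart.

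Gpr84 had the largest rise of the receptors at 3 h, the first time sampled. Its signal was 142 and 97.1 in the vehicle arrays, 3367 and 3231 after 3 h, 8291 and 8412 after 12 h, 6436 and 6597 after 24 h, and 2424 and 2594 after 48 h. HAFTL gave 123 and 137, within the range of the vehicle arrays, and all 8 arrays of estradiol-treated C10 lay above every HAFTL and vehicle array. The log2 change from vehicle was 4.81 ± 0.16 (SE, limma, n = 2 against 2, adjusted p = 1e-06) at 3 h, a 28.1-fold rise whose fitted change ranked 5 from the highest among 11696 genes. At 12 h the change was 6.15 on the log2 scale, again rank 5, at 24 h it was 5.79, and at 48 h it was 4.42, by then rank 155. The step from 3 h to 12 h added 1.34 (limma adjusted p = 0.00074), and the change from 12 h to 24 h, -0.36, did not pass the test (limma adjusted p = 0.11). From 24 h to 48 h the Gpr84 signal fell by 1.38 on the log2 scale (limma adjusted p = 0.00095), and it stood 1.74 below its 12 h level (limma adjusted p = 5.2e-05). It was the only member of the list that rose and then fell in this course by the tests between neighbouring times.

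**Figure D1:**
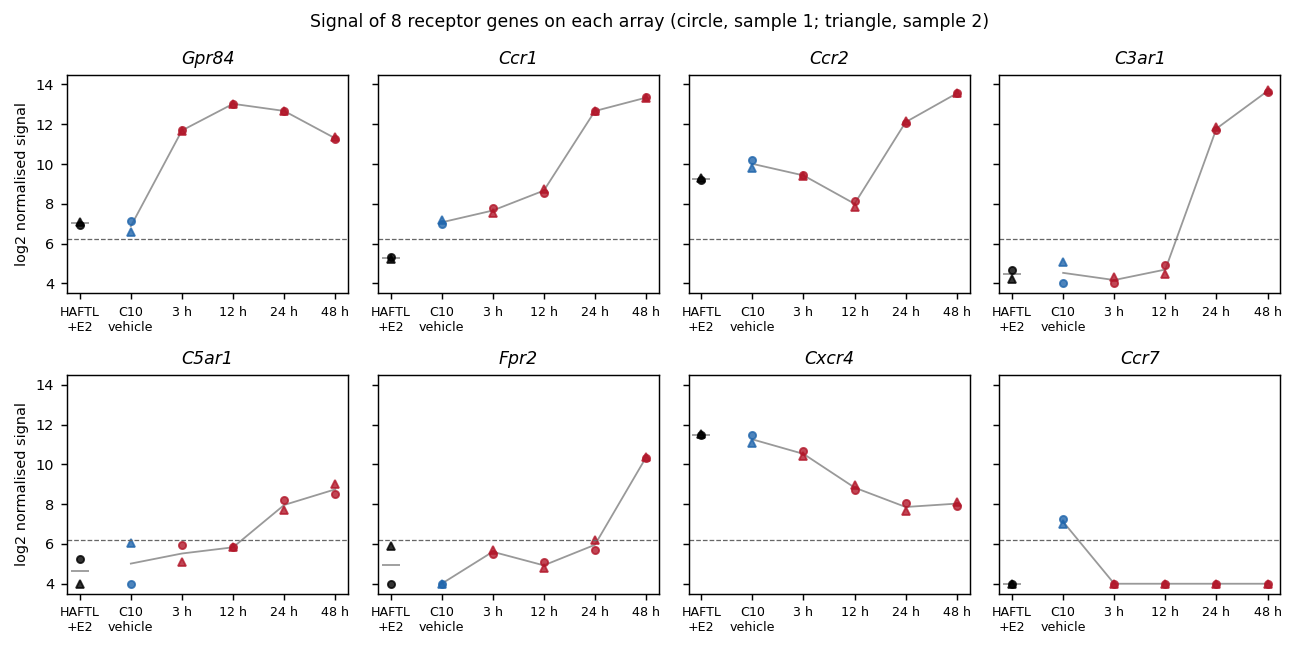
Normalised signal (log axis) of the probe set used for each of the 8 genes in the HAFTL arrays, the vehicle C10 arrays and the C10 arrays at 3, 12, 24 and 48 h of estradiol, with each point an array and 2 arrays per condition. Gpr84 peaks at 8291 and 8412 at 12 h, Ccr1, Ccr2, C3ar1, C5ar1 and Fpr2 have their highest arrays at 48 h, and Cxcr4 and Ccr7 lie below their vehicle arrays at 48 h.

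Ccr1, a receptor for Ccl3, Ccl5 and related chemokines, rose in steps through the whole course. The signal of its brighter probe set was 125 and 144 with vehicle, 222 and 185 after 3 h, 378 and 437 after 12 h, 6570 and 6423 after 24 h, and 10609 and 10109 after 48 h. Each time lay above the time before it in both arrays, with no overlap. The log2 changes from vehicle were 0.59 ± 0.12 (SE, limma adjusted p = 0.0048), 1.60, 5.60 and 6.27 at 3, 12, 24 and 48 h, the last a 77.1-fold rise (limma adjusted p = 2.5e-08). Most of the rise lay between 12 h and 24 h, a step of 4 on the log2 scale (limma adjusted p = 5.8e-07), whereas the steps from 3 h to 12 h and from 24 h to 48 h were 1.00 and 0.67. Fitted on the arrays of vehicle and 3 h alone, the first rise had an adjusted p of 0.052.

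Ccr2, the receptor for Ccl2 and a defining receptor of inflammatory monocytes, took a different course: it fell first and rose later. Its brightest probe set gave 1182 and 901 with vehicle, 694 and 685 after 3 h, 287 and 229.9 after 12 h, 4296 and 4542 after 24 h, and 12038 and 12010 after 48 h. The 12 h arrays were the lowest of all 12 and the 48 h arrays the highest. Against vehicle the log2 change was -0.58 ± 0.15 (SE, limma adjusted p = 0.012) at 3 h and -2.01 (limma adjusted p = 2.4e-05), a 4.02-fold fall, at 12 h. It then turned to 2.10 at 24 h and 3.54 at 48 h, an 11.7-fold rise (limma adjusted p = 5.3e-07). The turn between 12 h and 24 h was a 17.2-fold step of 4.10 (limma adjusted p = 9.3e-07), and a further 1.44 was added by 48 h. The fall at 3 h rested on single arrays: without the first vehicle array it was -0.39 (limma adjusted p = 0.068), and without the second 3 h array -0.57 (limma adjusted p = 0.053). It also depended on scaling, since with the arrays scaled to poly-A spike-ins the change was 0.07 while the median of all genes stood at 0.63, which left Ccr2 at -0.56 relative to that median.

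In the RefSeq gene order Ccr1 and Ccr2 lie in the same chemokine receptor cluster of chromosome 9, with Ccr1l1 and Ccr3 between them. Ccr3 was at the floor in 11 of 12 arrays, and neither Ccr3 nor Ccr1l1 passed the filter. Thus 2 genes of that stretch rose by 48 h, and at 12 h the values of the pair differed in sign, 1.60 for Ccr1 against -2.01 for Ccr2, both called against vehicle.

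C3ar1, the receptor for complement C3a, was under the filter level until 12 h and bright at 24 h. Its brightest probe set gave 16 and 33.4 with vehicle, 16 and 20.3 after 3 h, 29.9 and 22.5 after 12 h, 3331 and 3721 after 24 h, and 12475 and 13607 after 48 h. All 8 arrays of HAFTL, vehicle, 3 h and 12 h were under the filter level, HAFTL at 25.6 and 18.9, and the 4 later arrays lay far above them. Because the vehicle arrays were dim, its rise is a lower bound, the bright group's mean against the filter level: at least 47.2-fold at 24 h (limma adjusted p = 1.6e-06) and at least 174.5-fold at 48 h (limma adjusted p = 3.1e-07). Between 24 h and 48 h, where both conditions were bright, the signal rose 3.70-fold, a log2 step of 1.89 ± 0.34 (SE, limma adjusted p = 0.0057).

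C5ar1, the receptor for complement C5a and a potent attractant receptor of neutrophils and macrophages, also rose between 12 h and 24 h. Its probe set with the highest mean gave 16 and 65.1 with vehicle, 62.1 and 33.9 after 3 h, 56.6 and 57.2 after 12 h, 293.6 and 210.6 after 24 h, and 363 and 508 after 48 h. HAFTL gave 38.1 and 16. The 4 arrays at 24 h and 48 h lay above all others, and those at 48 h above those at 24 h, though the step between these times, 0.79 ± 0.68 (SE), did not pass the test (limma adjusted p = 0.44). The rise was at least 3.33-fold at 24 h (limma adjusted p = 0.0067) and at least 5.75-fold at 48 h (limma adjusted p = 0.0018). The step from 12 h to 24 h, at least 3.33-fold, passed narrowly (limma adjusted p = 0.036), and the call was lost without any of 6 single arrays, the highest adjusted p being 0.14.

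Fpr2, a formyl peptide receptor that also binds annexin A1 and serum amyloid A, passed the filter level last, at 48 h. Its single probe set gave 16 in both vehicle arrays, 45.6 and 52.1 after 3 h, 33.6 and 27.4 after 12 h, 52.0 and 74.1 after 24 h, and 1264 and 1347 after 48 h. HAFTL gave 16 and 59.2, and only the 48 h arrays passed the filter level. The rise was at least 17.5-fold at 48 h against vehicle (limma adjusted p = 1.9e-05) and against 24 h (limma adjusted p = 0.00096). Fpr2 was also called higher at 3 h (limma adjusted p = 0.035) and 24 h (limma adjusted p = 0.013), but all arrays involved were under the filter level, so no fold is given for these times. Those calls were lost without single arrays, with adjusted p-values of up to 0.12 at 3 h and 0.071 at 24 h.

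Cxcr4, the Cxcl12 receptor, fell in steps until 24 h. Its signal was 2801 and 2137 with vehicle, 1609 and 1352 after 3 h, 412 and 504 after 12 h, 266.9 and 201.5 after 24 h, and 242 and 281 after 48 h. HAFTL, at 2839 and 2955, lay above all other arrays after quantile normalisation. In the deposited values the first HAFTL array, at 2783, was below the first vehicle array, at 2815. The log2 changes from vehicle were -0.73 ± 0.19 (SE, limma adjusted p = 0.016), -2.42, -3.40 and -3.23 at 3, 12, 24 and 48 h, the last a 9.38-fold fall (limma adjusted p = 3.4e-06). The steps from 3 h to 12 h, -1.69, and from 12 h to 24 h, -0.97, passed the test (limma adjusted p = 0.00058 and 0.0044), and the arrays at 24 h and 48 h overlapped. The fall at 3 h was not called without the first vehicle array, -0.53 (limma adjusted p = 0.096), or without the second 3 h array, -0.60 (limma adjusted p = 0.088), and with spike-in scaling it was 0.02, or -0.61 relative to the median of all genes.

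Ccr7, the receptor for Ccl19 and Ccl21, was above the floor only in vehicle C10. It gave 151 and 127 in the vehicle arrays and lay at the floor of 16 in all 10 other arrays. The fall was therefore at least 1.86-fold at each time of estradiol (limma adjusted p = 6.6e-07 at 3 h and 9.3e-08 at 48 h), and HAFTL lay at least 1.86-fold below vehicle C10 (limma adjusted p = 5.1e-06). Every condition but vehicle lay at the floor, with no spread of its own, yet counted in the fit. The fitted spread was thereby lowered below that of the vehicle arrays, so these p-values are too small. Under a filter at the 70th percentile Ccr7 was no longer tested.

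**Figure D2:**
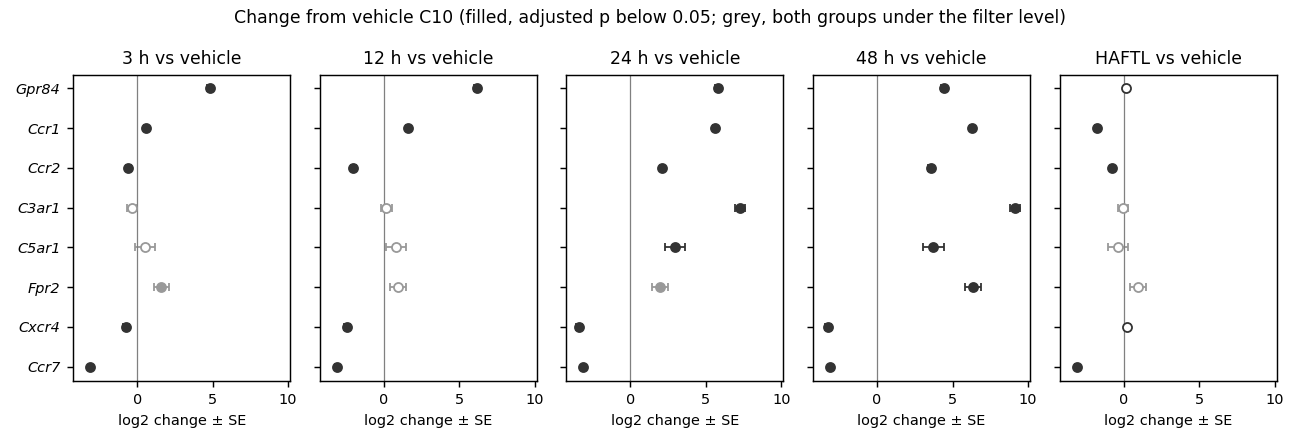
Log2 change from vehicle C10 (± SE of the limma fit, 2 arrays per condition) for the 8 genes at 3, 12, 24 and 48 h of estradiol. Gpr84 stands at 4.81 already at 3 h, the Ccr2 change passes from -2.01 at 12 h to 2.10 at 24 h, and Cxcr4 reaches -3.40 at 24 h; fitted values of genes dim in a condition are not bounds.

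Counted over the 8 genes, Ccr1, Fpr2 and Gpr84 were called higher at 3 h, 3 genes against a background of 20.9% of all genes tested, and Ccr2, Ccr7 and Cxcr4 were lower, 3 genes against 27.3%. At 12 h, Ccr1 and Gpr84 were higher (2 genes, background 22.3%) and Ccr2, Ccr7 and Cxcr4 lower (3 genes, background 28.7%). At 24 h, 6 genes were higher, against 24.2% of all genes, and Ccr7 and Cxcr4 were lower, against 33.3%. The same division held at 48 h, 6 higher against 24.2% and 2 lower against 38.2%. The median log2 change of the 8 genes was 0.07, 0.49, 2.52 and 4.07 at 3, 12, 24 and 48 h, beside -0.06, -0.08, -0.13 and -0.19 over all genes. With dim genes at their bound, and genes dim in both conditions at no change, the medians of the 8 were 0, 0, 1.92 and 3.83. Of the genes that passed the filter, Ccr7 did so only through its 2 vehicle arrays, Fpr2 only through the 2 arrays at 48 h, and C3ar1 and C5ar1 only through the 4 arrays at 24 h and 48 h, so such genes had to differ and the counts and medians support nothing by themselves.

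Between neighbouring times, 2 of the 8 genes rose from 3 h to 12 h (Ccr1 and Gpr84, background 16.6%) and 2 fell (Ccr2 and Cxcr4, background 16.6%). From 12 h to 24 h, Ccr1, Ccr2, C3ar1 and C5ar1 rose, 4 genes against 22.3%, and Cxcr4 fell, 1 gene against 23.1%. From 24 h to 48 h, Ccr1, Ccr2, Fpr2 and C3ar1 rose, 4 genes against 9.47%, and Gpr84 fell, 1 gene against 17.9%. By a moderated F test over vehicle and the 4 times, 8 of the 8 genes differed, with limma adjusted p from 4.1e-08 for Ccr1 to 0.0043 for C5ar1, where 76% of all genes were called. Ccr7, Fpr2, C3ar1 and C5ar1 passed the filter only through the conditions where they were bright, so they had to differ. The counts between neighbouring times and by the F test therefore support nothing by themselves.

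HAFTL shares estradiol with the treated C10 cells, its label names no inducible C/EBPa, and it was compared with C10 given ethanol. Line and estradiol both differ in this comparison and cannot be told apart. Ccr1, Ccr2 and Ccr7 were lower in HAFTL, 3 genes against a background of 8.12%, and by limma 0 of the 8 were higher, against 7.11%, also 0 at an unadjusted p below 0.05. Ccr7 passed the filter only through its 2 vehicle arrays, so it had to be lower. Fpr2, C3ar1 and C5ar1 were under the filter level in both HAFTL and vehicle. These counts therefore support nothing by themselves. Ccr1 gave 40.3 and 37.1 in HAFTL, under the filter level, at least 1.80-fold below vehicle C10 (limma adjusted p = 0.00017). Ccr2 gave 585 and 627, a change of -0.77 (limma adjusted p = 0.013) that was not called without either HAFTL array or without the first vehicle array, with adjusted p of up to 0.073. Gpr84 and Cxcr4 differed from vehicle C10 by 0.15 and 0.24 (limma adjusted p = 0.61 and 0.45). Measured against HAFTL in place of vehicle, the treated C10 cells kept the early rise of Gpr84, 4.67 at 3 h, and the fall of Cxcr4, -3.47 at 48 h, while Ccr1 was at least 138.7-fold higher at 48 h and Ccr2 stood at 0.19 at 3 h (limma adjusted p = 0.33). Ccr7 had no change from HAFTL at any time, both being at the floor.

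For 4 of the genes more than one probe set was measured, and these agreed on the direction at 24 h and 48 h in each case. The second Ccr1 probe set, under the filter level with vehicle, was at least 26.4-fold higher at 48 h, and its last step, 0.35, did not pass the test (limma adjusted p = 0.11). The 3 other Ccr2 probe sets gave 3.89, 3.18 and 3.56 at 48 h, but at 12 h only one of them, at -1.41 (limma adjusted p = 0.00023), passed the test, the others having adjusted p-values of 0.18 and 0.51. The other probe sets of C3ar1 rose at least 101.4-fold and at least 131.5-fold at 48 h. The second C5ar1 probe set was at 1040 and 1214 at 48 h, at least 15.1-fold above vehicle, and with it the step from 24 h to 48 h, 1.57, was called (limma adjusted p = 0.016). At 3 h and 12 h, when C5ar1 was under the filter level, neither of its probe sets was called.

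**Figure D3:**
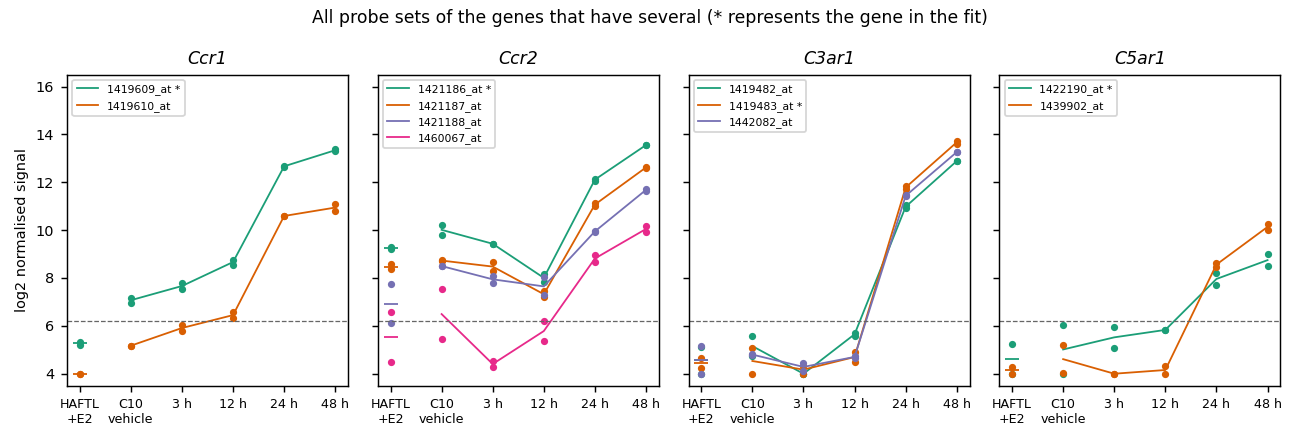
Signal (log axis) of every probe set of Ccr1, Ccr2, C3ar1 and C5ar1 over the 6 conditions, with points for arrays and lines through the 2-array means. Within a gene the probe sets share the rise at 24 h and 48 h and differ in level, as for C5ar1 at 48 h with 363 and 508 on one probe set and 1040 and 1214 on the other.

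From a list of 39 further chemoattractant receptor genes, 34 had a probe set and 18 were tested. Of the 18, 1 rose and 5 fell at 3 h, 5 rose and 4 fell at 12 h, 8 rose and 2 fell at 24 h, and 9 rose and 2 fell at 48 h. The fall of Gpr35 at 3 h and the rise of Ltb4r1 at 12 h are counted though both conditions were under the filter level. Over all genes 20.9%, 22.3%, 24.2% and 24.2% rose and 27.3%, 28.7%, 33.3% and 38.2% fell, so the counts of falls at 3 h and of both directions at 12 h were near the array-wide shares. The median changes of the 18 were -0.13, 0.12, 0.52 and 0.69 (-0.04, 0, 0.51 and 0.69 with dim genes at their bound). Cx3cr1, Ltb4r1, Gpr35 and P2ry2 passed the filter only through the 4 arrays at 24 h and 48 h. Hcar2 passed it only through arrays of C10 with estradiol, and Ccr6 only through those of vehicle and HAFTL. Such genes had to differ, so the counts and medians of the 18 support nothing by themselves. Genes with large rises at 48 h were the fractalkine receptor Cx3cr1, at least 14.8-fold (limma adjusted p = 3.8e-05), the nucleotide receptor P2ry6, at least 17.7-fold (limma adjusted p = 8.3e-05), and the leukotriene B4 receptor Ltb4r1, at least 5.46-fold (limma adjusted p = 1e-06), chosen by fitted change, which has no order where vehicle is dim. Gpr35, singled out after its value was seen, rose at least 8.54-fold (limma adjusted p = 3.3e-06). Against them stood Ccr6, the Ccl20 receptor, at least 6.01-fold lower at 48 h and already lower at 3 h (limma adjusted p = 0.00026 and 0.00025), and S1pr4, a sphingosine 1-phosphate receptor of lymphocytes. S1pr4 changed by -1.66 at 3 h, returned to 0.13 at 12 h, not called, and stood at -0.91 at 24 h and -2.78 ± 0.07 (SE, limma adjusted p = 8e-08) at 48 h.

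**Figure D4:**
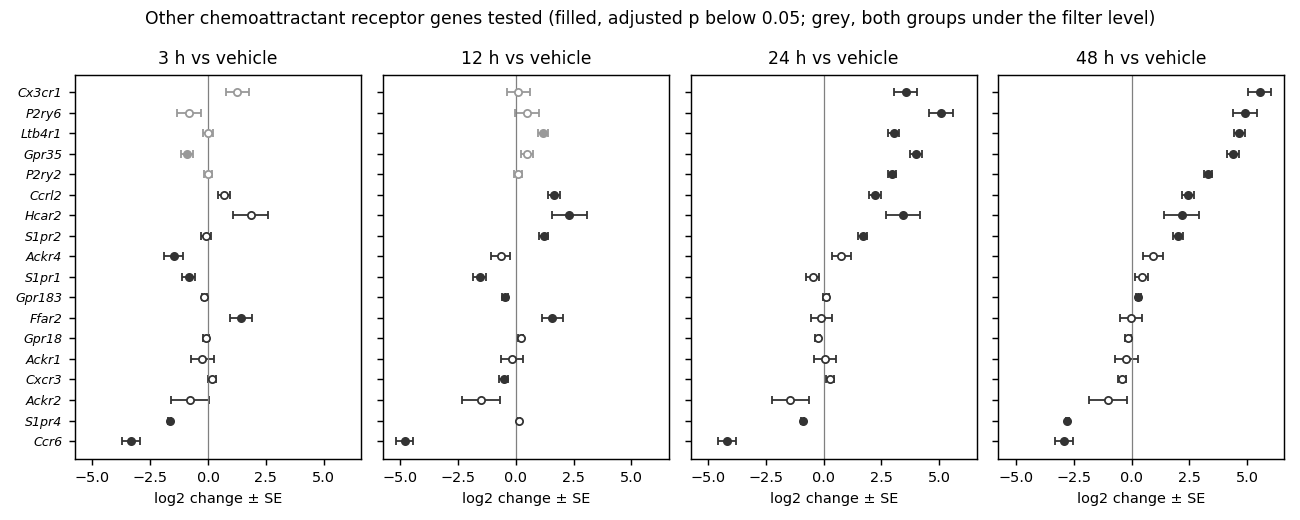
Log2 change from vehicle C10 (± SE of the limma fit) of the 18 further chemoattractant receptor genes tested, ordered by their fitted change at 48 h, which has no strict order where vehicle was dim; filled points passed an adjusted p of 0.05, and grey points had both conditions under the filter level. Cx3cr1, P2ry6 and Ltb4r1 are at the top at 48 h and S1pr4 and Ccr6 at the bottom.

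Most of the ligand genes tested had risen by 48 h. Of 21 ligand genes, 18 had a probe set and 15 were tested, of which 6, 6, 9 and 12 rose at 3, 12, 24 and 48 h, where 20.9%, 22.3%, 24.2% and 24.2% of all genes rose. None was called lower by limma before 48 h, with 0, 0 and 1 lower at an unadjusted p below 0.05, and 2 were lower at 48 h. The median change was 3.38 at 48 h, or 2.14 with dim genes at their bound. Ccl7, Ccl12 and Cxcl2 passed the filter only through the 2 arrays at 48 h, and Cxcl10 only through the 4 arrays at 24 h and 48 h. Ccl2 and Camp passed it only through arrays at 12 h or later. Such genes had to differ, so the counts and medians of the ligands support nothing by themselves. The rises of Camp at 3 h and of Ccl12 at 24 h are counted though both conditions were under the filter level. Ccl2, the Ccr2 ligand, rose at least 109.7-fold at 24 h and at least 182.6-fold at 48 h (limma adjusted p = 3.4e-06). The cathelicidin gene Camp, whose peptide acts on formyl peptide receptors, rose at least 34.7-fold at 48 h (limma adjusted p = 8.1e-09). Camp is also among the granulocyte markers summed above. Ccl9, a Ccr1 ligand, rose by 2.48 ± 0.12 (SE) at 3 h and 6.63 ± 0.12 at 48 h (limma adjusted p = 2e-08). Anxa1, a ligand of Fpr2, was up by 3.54 ± 0.10 (SE, limma adjusted p = 6.6e-07) at 3 h, when the Fpr2 arrays were still under the filter level. The ligands called lower at 48 h were Cxcl1, at -0.96 (limma adjusted p = 0.017), and Mif, which also acts through Cxcr4, at -0.50 (limma adjusted p = 0.0013). Mif had been called higher at 3 h, at 0.68 (limma adjusted p = 0.00045).

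G protein subunits, receptor kinases, arrestins and regulators of G protein signalling, were tested for 24 of 27 listed genes. At 3 h 3 rose and 14 fell (all genes, 20.9% and 27.3%), with a median of -0.44, and at 12 h 5 rose and 6 fell, near the shares of all genes (22.3% and 28.7%). At both 24 h and 48 h 14 rose (all genes, 24.2%) and 4 fell (all genes, 33.3% and 38.2%), with medians of 0.62 and 0.53, the first of them 0.40 with dim genes at their bound. The GTPase activator Rgs18 rose by 1.51 at 3 h and 3.70 ± 0.09 (SE, limma adjusted p = 6.6e-08) at 48 h, and beta-arrestin 2 (Arrb2) rose by 1.83 ± 0.10 (SE, limma adjusted p = 2.2e-06). The receptor kinase Grk5 rose by 1.37 ± 0.09 (SE, limma adjusted p = 4.8e-06). Grk3, whose arrays at 48 h were under the filter level, did not pass the test (limma adjusted p = 0.15). Those lower at 48 h were the kinase Grk6 (-0.63), the beta subunits Gnb1 (-0.51) and Gnb4 (-0.38), and the inhibitory alpha subunit Gnai3 (-0.29). Grk6 had been called higher at 3 h (0.67, limma adjusted p = 0.00039) and at 12 h (1.23, limma adjusted p = 1.7e-05).

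Downstream effectors of chemotaxis, 16 of 20 listed genes tested, gave 1 rise and 5 falls at 3 h, 8 rises and 3 falls at 12 h, and 12 rises and 2 falls at both 24 h and 48 h. Over all genes 20.9%, 22.3%, 24.2% and 24.2% rose and 27.3%, 28.7%, 33.3% and 38.2% fell, and the 5 falls at 3 h were near that share. The effectors had medians of -0.29, 0.33, 0.52 and 0.57. Fgr, among the rises at 24 h and 48 h, passed the filter only through arrays of C10 with estradiol, so it had to differ. Regulatory subunits of the G protein-driven phosphoinositide 3-kinase led at 48 h, Pik3r5 at 2.68 ± 0.25 (SE, limma adjusted p = 4.3e-05) and Pik3r6 at 1.58 ± 0.10 (SE, limma adjusted p = 4.1e-06), followed by the phospholipase Plcb3 at 1.31 ± 0.28. Elmo1, a partner of the Dock guanine nucleotide exchange factors, fell by 1.07 (limma adjusted p = 0.00014) and the kinase subunit Pik3cd fell by 0.41 (limma adjusted p = 0.044). In HAFTL against vehicle C10, the ligands Ccl3, Ccl6 and Ccl9 were under the filter level in HAFTL and at least 5.70-, 1.97- and 3.95-fold lower (limma adjusted p = 4.6e-05, 1.6e-05 and 4.2e-05).

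The genes whose courses lay nearest to each receptor were found by the root mean square difference of the fitted log2 changes over the 5 groups compared with vehicle, searched over 11695 genes. Hsd11b1, which regenerates active glucocorticoid, was nearest to Gpr84, at 0.60, and both genes were above the filter level in all 6 conditions. Hsd11b1 stood at 5.03 at 48 h, where Gpr84 had come down to 4.42. Tlr3, a receptor for double-stranded RNA, was nearest to Ccr2, at 0.35, with changes of 2.07 and 3.52 at 24 h and 48 h, and Ccl6 was nearest to Ccr1, at 0.74. Cabcoco1 was nearest to Cxcr4, at 0.23. In these 3 pairs at least 1 condition was under the filter level for 1 or both genes, so their distances are approximate, as are those of the second nearest genes Arg2 for Gpr84, Irgm2 for Ccr2, App for Ccr1 and Myom1 for Cxcr4. For C3ar1 (Rtp4 and Slfn1), C5ar1 (Dcun1d3 and Tdrd7), Fpr2 (Klra17 and Ms4a4c) and Ccr7 (Adam6b and Svopl), 4 or 5 of the 6 conditions of the receptor were under the filter level, so the genes found are given without a distance.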

How the data were processed

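RNA from 12 samples was labelled with biotin for one-colour arrays, per the labels' protocols. The deposited values are linear intensities per probe set, scaled between arrays by the authors, since their means after trimming 2% at each end were equal. How they were summarised and scaled is not given in the sources used here. Sample titles gave the groups and replicate numbers.

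Intensities were put on the log2 scale and quantile-normalised over 45101 probe sets. The 64 control probe sets were dropped, signals under 16 were set to 16, and a gene took its probe set with the highest mean. The platform annotation gave a single gene for 34945 probe sets, of which 34741 were found by Entrez ID in RefSeq (GRCm38.p6), several genes for 932 and none for 9160. Genes over the median of all values in at least 2 arrays were tested in R 4.3.3 with limma 3.58.1, all 12 arrays sharing a fit with a mean for each group (residual degrees of freedom 6, prior degrees of freedom 1.53), two-sided, with Benjamini-Hochberg adjustment over 11696 genes and a threshold of 0.05. The code was tested on simulated data. Where both arrays of the dimmer group were under the filter level, folds are bounds against that level, given as at least so many fold. Array number limits the precision. Probes may also detect related receptors.

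The genes named were the listed receptors, up to 3 tested genes per pathway list with the largest change at 48 h, list members called against the majority, and the 2 nearest courses per receptor. A few further values (Gpr35, Grk5, Ccl9 and Anxa1 at 3 h, the HAFTL ligands) were outside this rule and chosen after they were seen. The members and lists were chosen with earlier results of these data known. Alternatives covered scaling, filter, probe set rule, floor, model and left-out arrays.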

Additional observations from a re-analysis of the deposited data

Results flagged for a closer look

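The Ccr2 course turned between 12 h and 24 h. Both arrays at 12 h lay below both vehicle arrays (log2 change -2.01) and both at 24 h lay above them (2.10), and the test of the step itself gave 4.10 (limma adjusted p = 9.3e-07). At 12 h, 2 of the 4 probe sets of Ccr2 passed the test as lower, and all 4 were higher at 48 h.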

How the results depend on the processing

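Of 1808 values of single genes recomputed under 35 settings, 1678 kept direction and side of the threshold, 81 lost and 24 gained a call, and 25 changed sign. Those sign changes were as follows, with their log2 values. Scaling to poly-A spike-ins gave Ccr2 0.07, Cxcr4 0.02 and C3ar1 0.01 at 3 h, with all genes at a median of 0.63. Single probe sets gave C5ar1 -0.61 at 3 h and -0.45 at 12 h, C3ar1 -0.10 at 12 h and Ccr2 1.38 from 3 h to 12 h, and the mean of probe sets gave C5ar1 -0.05 at 3 h. HAFTL against vehicle gave C3ar1 0.09 without quantile normalisation and 0.32 with a pseudocount of 16, and C5ar1 0.78 with a floor of 1. With HAFTL as the control, Ccr2 was 0.19 at 3 h and Fpr2 -0.02 at 12 h. Leaving out single arrays moved C3ar1 from -0.89 to 0.17 at 3 h, -0.37 to 0.70 at 12 h and -0.60 to 0.46 in HAFTL, C5ar1 from -0.50 to 1.52 at 3 h, -0.19 to 1.83 at 12 h, -1.40 to 0.63 in HAFTL and -0.13 to 0.75 from 3 h to 12 h, Gpr84 from -0.13 to 0.42 in HAFTL, and Cxcr4 from -0.03 to 0.37 from 24 h to 48 h. The cause was not tested, and most of these values are of dim genes.

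Counts of the receptors moved as follows. Spike-in scaling left 1 lower at 3 h and 1 in HAFTL, 0 higher and 1 lower from 3 h to 12 h, and 0 lower from 24 h to 48 h. A filter at the 70th percentile left 1 lower at 24 h and 1 at 48 h, because Ccr7 was not tested. The mean of probe sets left 1 lower from 3 h to 12 h. Fitting only the groups compared left 1 lower at 3 h and gave 2 lower from 12 h to 24 h, as did an intensity trend. A minimum change of 1 left 1 higher and 1 lower at 3 h, 0 and 0 from 3 h to 12 h, 0 lower from 12 h to 24 h, and 1 higher and 0 lower from 24 h to 48 h. With HAFTL as the control, 1 was lower at 3 h, 1 at 24 h and 1 at 48 h. Leaving out single arrays gave 1 to 3 lower at 3 h, 0 to 1 higher in HAFTL and 1 to 2 lower from 12 h to 24 h.

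Same-numbered arrays did not deviate together (correlations of -0.03 to 0.04 over 15 pairs of groups), so the numbers pair nothing. With the replicate number as a block, the C5ar1 step from 12 h to 24 h was 2.13 (limma adjusted p = 0.054), and no other receptor call changed. Signals near the floor limit what can be said of C3ar1, C5ar1, Fpr2 and Ccr7 in their dim conditions.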
